A study of Homo sapiens with 94 samples.

Results

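The acute-phase genes followed here were SAA1, SAA2 and SAA4 (serum amyloid A), C3 (complement component 3), LCN2 (lipocalin 2), CFB (complement factor B) and CP (ceruloplasmin). They are 7 of the 20239 genes in the deposited expression table, found by their symbols. The group was chosen by measured FPKM values of these tumors, and the values of 200 mg/kg K-975 against vehicle at 24 h are treated as those that chose it, so that comparison is described without a test.

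The 94 tumors were xenografts of NCI-H226, an established human line of malignant pleural mesothelioma with a deletion of NF2, grown under the skin of the flank of SCID mice, which lack B and T cells. All tumors therefore share the same line and host, with 1 tumor and 1 library per mouse. K-975 is a covalent inhibitor that blocks the palmitoylation of TEAD transcription factors, the partners of the co-activators YAP1 and TAZ. Mice received a single dose of K-975 by mouth, the vehicle (EtOH/Solutol/glucose), or nothing, and the comparisons ask whether transcripts follow dose and time.

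The libraries came from 3 studies. Tumors of the 24 h study were untreated (5), vehicle (4), or K-975 at 200, 100 or 30 mg/kg (5 each). The 1 h study had 5 tumors in each of the same 5 groups. The 3-6 h study had 5 untreated tumors and 10 tumors each of vehicle and of the 3 doses, split over 2 cage groups of 5 each. Which of these was sampled at 3 h or at 6 h is not in the labels. The dosing volume was 20 mL/kg for vehicle and for the 200 mg/kg dose but 10 mL/kg for both lower doses, which thus have no control of equal volume. Expression is given as FPKM, the number of fragments of a gene corrected for its transcript length and for library size. Read counts were not analysed here, so the depth is unknown and no counting interval can be given. In 91 libraries, between 11344 and 11665 genes reached an FPKM of 1. In 3 libraries (200 mg/kg at 1 h, 100 mg/kg at 24 h and 30 mg/kg at 24 h, 1 each) fewer than 10000 did. These were left out of all values below unless stated, which leaves 4 tumors in each of those groups. CCN1 and CCN2, TEAD target genes used to check the labels, fell at 200 mg/kg by 1.26 and 1.44 on the log2 scale at 24 h (adjusted p = 1.23e-05 and 2.11e-06, limma).

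The acute-phase response is the change in secreted proteins that follows infection or injury. Its best known source is the liver, where interleukin-6 acts through STAT3, and interleukin-1 through NF-kB and C/EBP factors, to raise SAA1, SAA2, C3, CFB, LCN2 and CP, but epithelial and tumor cells also make several of these proteins. SAA1 and SAA2 encode apolipoproteins of high-density lipoprotein, SAA4 is a family member that is expressed constitutively, C3 and CFB form the C3 convertase of the alternative complement pathway, LCN2 binds iron-carrying siderophores, and CP is a copper-carrying ferroxidase.

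SAA1 and SAA2 are so alike that fragments can be assigned to the wrong one, which is why their sum is given throughout. Their coding sequences, of 366 bases each in GENCODE 29, differed at 11 positions (97.0% identity), and 118 of the 541 windows of 75 bases in the SAA1 mRNA (21.8%) also occurred in the SAA2 mRNA. SAA4 was farther away, with 70.6% identity to SAA1 and 0 shared windows. The first 240 coding bases of both genes are shown because they hold only 3 of the 11 differences, printed in capitals.
SAA1: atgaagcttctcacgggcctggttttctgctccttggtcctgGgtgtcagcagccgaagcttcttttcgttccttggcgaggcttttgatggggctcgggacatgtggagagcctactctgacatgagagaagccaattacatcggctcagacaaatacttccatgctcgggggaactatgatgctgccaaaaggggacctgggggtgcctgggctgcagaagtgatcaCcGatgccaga
SAA2: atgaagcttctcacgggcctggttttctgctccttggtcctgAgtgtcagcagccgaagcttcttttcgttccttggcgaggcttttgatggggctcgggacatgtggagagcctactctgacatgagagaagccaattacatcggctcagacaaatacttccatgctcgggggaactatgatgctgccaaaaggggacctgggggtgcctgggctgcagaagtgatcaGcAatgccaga
Over the 91 libraries the ratio of SAA1 to SAA2 had a median of 5.15 and ranged from 3.59 to 11.3. It was 4.79 ± 0.287 (SD, n = 4) in vehicle and 5.22 ± 0.799 (n = 5) at 200 mg/kg at 24 h. At 30 mg/kg in the 3-6 h study it was 5.11 ± 0.448 (n = 5) in cage group 8 and 8.17 ± 1.94 (n = 5) in cage group 9. Since fragments can be assigned to the wrong gene, a similar ratio does not show that both genes changed.

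In GRCh38 coordinates of the table, SAA1 lies on chromosome 11 from 18266174 to 18269977 on the plus strand, and SAA2 from 18239223 to 18248643 and SAA4 from 18231349 to 18236893 on the minus strand beside it. SAA2 and SAA4 overlap a readthrough gene, SAA2-SAA4, so that their fragments cannot be fully separated. C3 lies on chromosome 19 from 6677704 to 6720682 (minus), LCN2 on chromosome 9 from 128149071 to 128153455 (plus), CFB on chromosome 6 from 31945709 to 31952084 (plus) and CP on chromosome 3 from 149162410 to 149222055 (minus). CFB overlaps C2 and CP overlaps HPS3, and whether strand was used in counting is not given in the sources used here.

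The RefSeq promoter windows (GRCh38.p14, 250 bases before to 50 after the start) were present in the reference table for 3 of the 7 genes. They were searched on both strands for the letters of the factors named above, and the matches are in capitals.
CFB, chr6:31945845-31946144, plus strand: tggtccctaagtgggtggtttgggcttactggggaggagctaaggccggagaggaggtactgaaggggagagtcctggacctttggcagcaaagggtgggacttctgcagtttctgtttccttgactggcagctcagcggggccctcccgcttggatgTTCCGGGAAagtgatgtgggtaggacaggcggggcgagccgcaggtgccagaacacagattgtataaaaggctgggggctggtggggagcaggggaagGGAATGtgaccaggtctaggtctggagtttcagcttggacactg
LCN2, chr9:128149203-128149502, plus strand: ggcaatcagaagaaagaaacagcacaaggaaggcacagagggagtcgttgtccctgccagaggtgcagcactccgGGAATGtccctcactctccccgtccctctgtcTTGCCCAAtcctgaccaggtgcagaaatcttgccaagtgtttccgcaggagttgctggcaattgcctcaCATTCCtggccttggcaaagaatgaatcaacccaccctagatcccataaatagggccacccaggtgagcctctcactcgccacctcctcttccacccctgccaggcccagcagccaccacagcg
SAA4, chr11:18236753-18237052, minus strand: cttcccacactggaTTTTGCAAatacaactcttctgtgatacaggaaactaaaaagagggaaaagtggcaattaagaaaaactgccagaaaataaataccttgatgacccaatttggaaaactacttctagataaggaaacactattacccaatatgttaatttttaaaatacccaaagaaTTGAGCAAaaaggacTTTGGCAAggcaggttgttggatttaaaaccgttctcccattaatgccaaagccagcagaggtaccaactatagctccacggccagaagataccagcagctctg
A STAT3-type motif, TTCNNNGAA, was found in CFB at position -92 from the start, and is held by 7.66% of 35116 promoters of this length. A C/EBP motif, TTGCNNAA, was found in LCN2 at -143 and, on the opposite strand, in SAA4 at -236, -69 and -54, and is held by 10.5% of promoters. The TEAD motif GGAATG was found in LCN2 at -175 and, on the opposite strand, at -74, and in CFB at 7 (the start is position 1), and is held by 14.0% of promoters. The NF-kB motif was searched only as GGANTTTCC, which is held by 1.64% of promoters, and in that form was in none of these 3 windows. Other forms of these motifs were not searched, so a site written with other letters would be missed. Such matches are descriptions of letters and not of binding. No motif overlapped another.

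The serum amyloid and complement transcripts were among the most abundant of these tumors. Mean FPKM over the 91 libraries was 1898 for C3 (rank 12 of the 13036 genes that reached an FPKM of 1 in at least 4 libraries), 1289 for SAA1 (rank 21), 335 for CFB, 259 for SAA2 and 35.6 for LCN2. Libraries were enriched with capture probes, so levels of different genes also depend on capture. SAA4 was low, with a mean FPKM of 1.23 and a value under 0.01 in 38 of 91 libraries. CP was under 0.01 in 86 of 91 libraries and reached at most 1.19, so 6 of the 7 genes entered the tests and CP is reported only as barely detected.

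Tumors of the same group differed widely in some of these genes and little in others. The summed FPKM of SAA1 and SAA2 ran from 251 in an untreated tumor of the 3-6 h study to 3863 in a tumor given 100 mg/kg in the same study. The SD of log2(FPKM + 1) within groups was 0.968 for SAA2, 0.791 for SAA1 and 0.772 for LCN2, larger than in 99.5%, 98.7% and 98.5% of the tested genes. CFB, with an SD of 0.45, exceeded 82.5% of genes. C3 was steady, with an SD of 0.292 that exceeded 50.6% of genes. This spread limits what groups of 4 or 5 tumors can show for SAA1, SAA2 and LCN2.

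**Figure D1:**
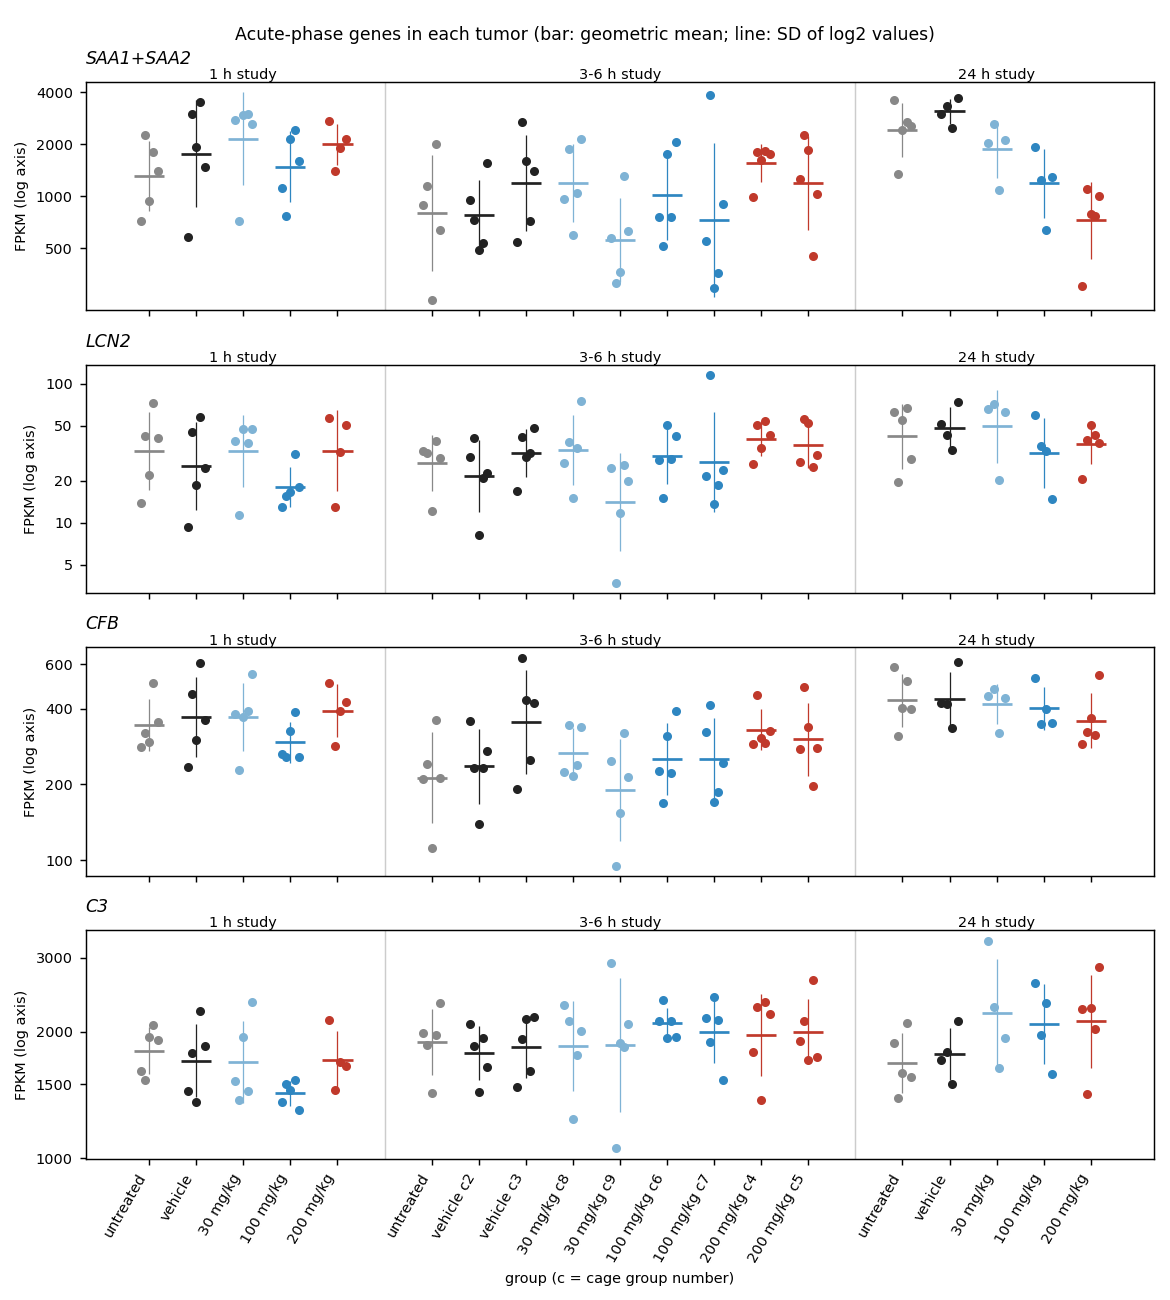
FPKM (log axis) of SAA1 plus SAA2, LCN2, CFB and C3 in each tumor by group, with a bar at the geometric mean and a line for the SD on the log2 scale. At 24 h the 5 tumors given 200 mg/kg have SAA1 plus SAA2 sums of 302 to 1108, under the 2494 to 3709 of the vehicle tumors, while C3 overlaps between the groups.

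At 24 h after 200 mg/kg, SAA1 and SAA2 transcripts stood below their vehicle level in every tumor, and LCN2, CFB and C3 of the same tumors overlapped with vehicle. SAA1 was 2450.4, 2781, 2089 and 3060.4 FPKM in the vehicle tumors and 261, 929.8, 631, 645 and 843 after 200 mg/kg. SAA2 was 548, 575, 405 and 649 in vehicle and 41.0, 178, 154, 123 and 164 after 200 mg/kg. For both genes every treated tumor lay below every vehicle tumor and below every untreated tumor of the study. In the untreated tumors the sum of both was 3597, 1348, 2436, 2707 and 2548. The share of all genes whose groups separate in this way is not given, so the separation is not read as particular to these genes.

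The mean of the SAA1 plus SAA2 sum was 794 ± 311 (SD, n = 5) after 200 mg/kg, 3139 ± 519 (n = 4) in vehicle and 2527 ± 802 (n = 5) in untreated tumors, 3.95-fold lower than vehicle and 3.18-fold lower than untreated. The log2 fold change against vehicle was -2.08 (SE 0.528) for SAA1, -2.18 (SE 0.645) for SAA2 and -2.09 (SE 0.544) for the sum. No test is given, since this comparison is treated as the one that chose the genes. Over all tested genes in it, 7.41% were called at an adjusted p under 0.05. With all 94 libraries in the fit, 0 of 13041 were. Fewer cells making a transcript and less transcript per cell cannot be told apart in bulk tumors.

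Among the remaining genes of the group the differences at 200 mg/kg were small against their spread. LCN2 was 51.1, 43.2, 33.6 and 74.6 FPKM in vehicle and 20.8, 39.7, 50.5, 43.2 and 37.8 after 200 mg/kg, with 1 of 5 treated tumors below all vehicle tumors. CFB was 420.5, 416, 336 and 615 in vehicle and 289.8, 322, 368, 313 and 545 after 200 mg/kg, with 3 of 5 below all vehicle tumors. C3 was 1711, 1795, 1506 and 2125 in vehicle and 2272, 1423, 2275, 2034 and 2856 after 200 mg/kg. Here 3 of 5 treated tumors were above all vehicle tumors and 1 was below them. The log2 fold changes were -0.39 (SE 0.502) for LCN2, -0.29 (SE 0.293) for CFB and 0.26 (SE 0.19) for C3. These too are values of the comparison taken as the one that chose the genes, so nothing is read from their order. SAA4, between 0 and 5.44 in vehicle and between 0 and 1.63 after 200 mg/kg, had a log2 fold change of -1.01 (SE 0.572) from values close to the limit of detection.

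Of 4 other measures of these tumors, the number of genes detected and the mesothelial markers did not overlap between vehicle and 200 mg/kg, and the neutrophil and leukocyte markers did. Genes reaching an FPKM of 1 numbered 11356 to 11422 in vehicle and 11424 to 11613 after 200 mg/kg. The summed FPKM of 7 mesothelial markers (MSLN, CALB2, WT1, UPK3B, PDPN, LRRN4, KRT19) was 1231 to 1341 in vehicle and 1397 to 1921 after 200 mg/kg, that of 6 neutrophil markers 0 to 0.64 and 0.637 to 2.78, and that of 7 leukocyte markers, nearly all from CD68, 148 to 227 and 130.4 to 209.9. Their part in the lower SAA1 and SAA2 values was not tested. Host cells of these tumors are mouse cells, whereas the table holds human genes, and the handling of mouse reads is not given. The leukocyte, neutrophil, hepatocyte and endothelial markers can thus not be read as amounts of host cells. Of the hepatocyte markers, AHSG was at 0 in all 91 libraries and APOB and TTR reached at most 0.0489 and 0.417. The 7 mesothelial markers had mean FPKM from 1.61 (UPK3B) to 613 (CALB2).

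The lower doses at 24 h were compared with the same 4 vehicle tumors, so these comparisons are not independent of the one above. After 100 mg/kg, SAA1 was 1519.9, 1021, 534 and 1111 FPKM, all 4 below every vehicle tumor. SAA2 was 423, 219, 100.5 and 189, with 3 of 4 below every vehicle tumor. For these counts too, the share over all genes is not given. The sum averaged 1279.5 ± 535 (SD, n = 4), 2.45-fold lower than vehicle. In limma across all 13036 genes the log2 fold change was -1.39 for SAA1 (SE 0.556, adjusted p = 0.22), -1.38 for SAA2 (SE 0.68, adjusted p = 0.341) and -1.39 for the sum (SE 0.574, adjusted p = 0.236). None of the 6 tested members passed the threshold, 2 had an unadjusted p under 0.05 (SAA1, 0.0148, and SAA2, 0.0455), as did 1837 of all 13036 genes, and 1.12% of all tested genes were called in this comparison. LCN2 (log2 fold change -0.59, SE 0.529), CFB (-0.12, SE 0.309) and C3 (0.24, SE 0.2) had adjusted p-values from 0.639 to 0.901. Against the untreated tumors of the study the difference at 100 mg/kg was smaller. The sum was 1.98-fold lower, with 3 of 4 tumors below every untreated tumor. There 0 of the 6 members passed or had an unadjusted p under 0.05 in limma (smallest adjusted p = 0.34), against 1.99% of all genes called.

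After 30 mg/kg at 24 h, SAA1 was 1659, 2155, 896 and 1692 FPKM and SAA2 375, 479.5, 187 and 425. Of the 4 tumors, 3 lay below every vehicle tumor in SAA1 and 2 in SAA2. As above, the share of all genes that separate in this way is not given, here or against untreated tumors below. Nothing is read from these counts. The sum averaged 1967 ± 646 (SD, n = 4), 1.6-fold lower than vehicle, with a log2 fold change of -0.73 (SE 0.574, adjusted p = 0.695, limma). LCN2 was at 66.3, 71.2, 20.2 and 62.3, overlapping with vehicle on both sides. By limma none of the 6 members passed and 0 had an unadjusted p under 0.05, against 0.0384% of all genes called. Against untreated tumors the sum at 30 mg/kg was 1.28-fold lower, with 1 of 4 tumors below every untreated tumor. No member passed there in limma (smallest adjusted p = 0.399), against 0.353% of all genes called. In that comparison 1 of the 6 had an unadjusted p under 0.05, as did 1537 of all 13036 genes. The mean sum was 3139 in vehicle, 1967 at 30, 1279.5 at 100 and 794 at 200 mg/kg, and 2527 in untreated tumors. Neighbouring doses overlapped from tumor to tumor, with 1084 to 2635 at 30, 634 to 1943 at 100 and 302 to 1108 at 200 mg/kg. The vehicle and 200 mg/kg values are those treated as having chosen the genes. The 2 lower doses also had a smaller dosing volume, so nothing is read from this order.

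**Figure D2:**
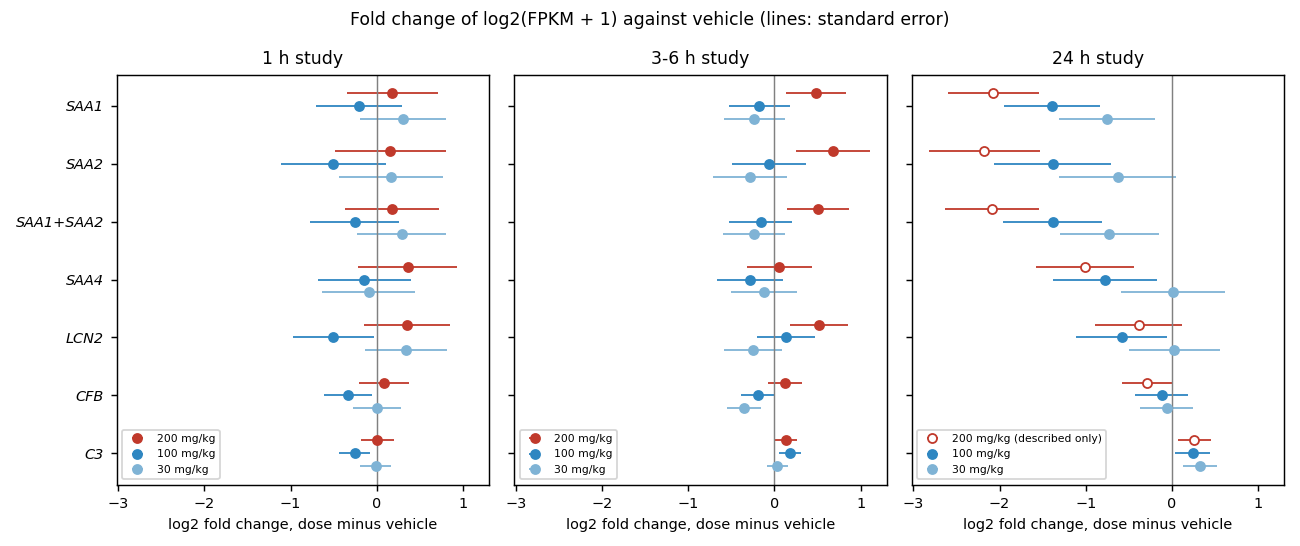
Log2 fold change of each gene (on log2(FPKM + 1)) at 200, 100 and 30 mg/kg against vehicle in the 3 studies, with lines for the SE. Open points at 24 h and 200 mg/kg are described without a test. SAA1 and SAA2 lie near -2 there and above 0 at the same dose at 3-6 h, and C3 lies between -0.26 and 0.32 in all panels.

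Because SAA1, SAA2, LCN2 and CFB vary together between tumors, the sum of SAA1 and SAA2 was also set against CFB and LCN2 of the same tumor. These ratios were chosen after the values had been seen. At 24 h the log2 ratio of the sum to CFB was 2.83, 3.01, 2.89 and 2.59 in vehicle, against 2.62, 2.11, 2.6, 2.4 and 2.67 in untreated tumors. It was 2.18, 2.46, 1.75 and 2.27 at 30 mg/kg and 1.87, 1.83, 0.663 and 1.88 at 100 mg/kg. In each of these 2 dose groups all 4 tumors were below all 4 vehicle tumors, with mean differences of -0.668 and -1.27. Both had p = 0.0286 in a two-sided exact permutation test, the smallest p that 4 against 4 can give, and 0.229 after adjustment over 16 comparisons of 2 ratios with vehicle. The vehicle tumors at 24 h are among those treated as having chosen the genes, so a lower ratio against them was favoured in advance. Nothing is thus read from these separations or from the p-values against vehicle at 24 h.

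At 200 mg/kg the log2 ratio to CFB was 0.0607, 1.78, 1.09, 1.29 and 0.884, below every vehicle and untreated tumor, with a mean difference of -1.81 from vehicle that is given as a description. Against untreated tumors, the mean ratio at 100 mg/kg differed by -0.916, again lower in all 4 tumors (exact permutation p = 0.0159, adjusted 0.127), and that at 30 mg/kg by -0.317 (exact permutation p = 0.127). Set against LCN2, the sum differed from vehicle by -1.71 at 200, -0.801 at 100 (exact permutation p = 0.143) and -0.758 at 30 mg/kg (exact permutation p = 0.0571). None of these tests passed the adjusted threshold.

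**Figure D3:**
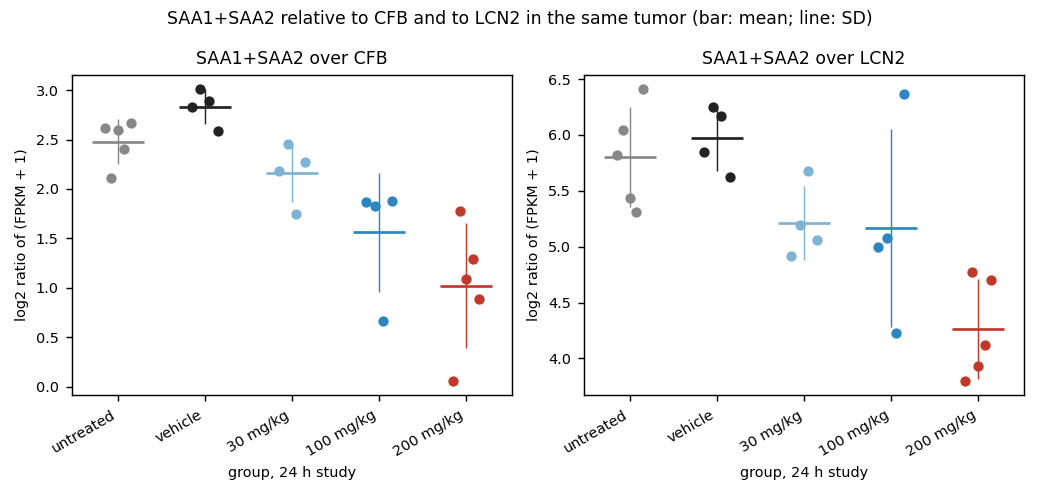
Log2 ratio of SAA1 plus SAA2 to CFB and to LCN2 in each tumor at 24 h, with a bar at the mean and a line for the SD. The ratio to CFB lies between 2.59 and 3.01 in vehicle and between 0.0607 and 1.78 at 200 mg/kg, with the means of the lower doses, 2.16 at 30 mg/kg and 1.56 at 100 mg/kg, between those of vehicle (2.83) and 200 mg/kg (1.02).

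In the 3-6 h study, with tumors other than those at 24 h, SAA1 and SAA2 were not lower at 200 mg/kg than in vehicle. The sum ranged from 490.1 to 2691 with a median of 840.1 in the 10 vehicle tumors, and from 448 to 2263 with a median of 1689.6 in the 10 tumors given 200 mg/kg. The fold changes at 200 mg/kg were above 0, at 0.48 for SAA1 (SE 0.352, 95% interval -0.22 to 1.18, adjusted p = 0.835) and 0.68 for SAA2 (SE 0.43, adjusted p = 0.792) in limma. LCN2, at 25.1 to 55.5 with a median of 38.7 against 8.17 to 48.4 with a median of 29.8 in vehicle, had a log2 fold change of 0.52 (SE 0.335, adjusted p = 0.798). CFB and C3 had fold changes of 0.13 each. None of the 6 members passed or had an unadjusted p under 0.05 in limma, against 0.069% of all genes called. CCN1 and CCN2 fell in the same tumors, by 0.72 and 0.63 on the log2 scale (adjusted p = 0.00223 and 0.0338).

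At 100 and 30 mg/kg in this study the log2 fold changes of the 6 members lay between -0.29 and 0.18 and between -0.36 and 0.04. None passed or had an unadjusted p under 0.05, against 0.43% and 0.0153% of all genes. Median sums of 761 at 100 mg/kg and 794 at 30 mg/kg were near the vehicle median, and their ranges of 294 to 3863 and 314 to 2147 enclosed most of the vehicle range. The ratio of the sum to CFB at 200 mg/kg was higher than vehicle by 0.381 on the log2 scale (two-sided permutation test, p = 0.0489), which did not pass after adjustment over the 16 comparisons (0.229).

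The cage groups of this study were also taken one at a time. Against the 10 vehicle tumors, no member passed in cage groups 4 and 5 (200 mg/kg), 6 and 7 (100 mg/kg) or 8 and 9 (30 mg/kg), where 0.00767%, 0.276%, 0%, 1.33%, 0% and 0.0307% of all genes were called. At an unadjusted p under 0.05 the limma count was 3 of 6 in cage group 9, where 1207 of all 13036 genes were at that level, and 0 in the other five. In cage group 9 the sum ran from 314 to 1308 and in cage group 8, at the same dose, from 599 to 2147. Between them the log2 fold change was -1.64 for SAA2 (adjusted p = 0.594, limma), with 0% of genes called and with 3 of 6 members and 829 of 13036 genes at an unadjusted p under 0.05. The pairs 5 against 4, 7 against 6 and vehicle 3 against 2 likewise had no member past the threshold, with 0.0153%, 0.046% and 0.33% of genes called and limma counts at an unadjusted p under 0.05 of 0, 0 and 1 (CFB, 0.59 higher in vehicle cage group 3, where 1298 of all genes were at that level). The log2 fold change of SAA2 in the dosed cage groups against vehicle ran from -1.11 to 0.92. The difference of -1.64 was the largest in size among these pairs. Since cage groups 8 and 9 may have been sampled at different times, it is not read as spread between tumors treated alike.

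At 1 h no member differed from vehicle in limma. The sum was 583 to 3501 with a median of 1920.1 in the 5 vehicle tumors, 1410.3 to 2739 at 200 mg/kg (n = 4), 764 to 2410 at 100 mg/kg and 717 to 3015 at 30 mg/kg. All groups overlapped. The log2 fold changes of the 6 members ran from 0.01 to 0.36 at 200 mg/kg, from -0.51 to -0.15 at 100 mg/kg and from -0.10 to 0.34 at 30 mg/kg, none with an unadjusted p under 0.05. Of all genes, 0%, 0.00767% and 0% were called at these doses, with 435, 648 and 571 of 13036 at an unadjusted p under 0.05 in limma.

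Vehicle itself was compared with untreated tumors in each study. Of the 6 members none was called or had an unadjusted p under 0.05 in limma at 24 h, 3-6 h or 1 h, and 0% of all genes were called in each. At 1 h the log2 ratio of the SAA1 plus SAA2 sum to LCN2 was 5.82, 6.01, 6.61, 5.9 and 5.85 in vehicle and 5.6, 5.71, 5.34, 4.62 and 5.06 in untreated tumors. It was higher in 5 of 5 vehicle tumors, by 0.77 in the mean (two-sided exact permutation p = 0.00794, the smallest that 5 against 5 can give, adjusted 0.0476 over 6 comparisons). In the same ratio at 24 h the difference was 0.166 (exact permutation p = 0.54) and at 3-6 h 0.305 (exact permutation p = 0.4). A ratio chosen after the values were seen carries less weight than a planned one. The ratio of the sum to C3 was also computed but was not tested, so the adjustment leaves it out. The adjusted 0.0476 thus does not allow for every ratio computed, and nothing is read from it.

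The untreated tumors of the 24 h study had higher means of SAA1 and CFB than those of the 3-6 h and 1 h studies. SAA1 was 2937, 1154, 1984, 2199 and 2136 FPKM in the 24 h study, 755, 957, 224, 1663 and 555 in the 3-6 h study and 596, 1899, 791, 1512 and 1185 in the 1 h study. CFB was 584, 312, 402, 514 and 398 in the 24 h study, 211, 242, 112, 359 and 212 in the 3-6 h study and 282, 319.9, 296, 508 and 355 in the 1 h study. For both genes 4 of 5 tumors of the 24 h study were above every tumor of the 3-6 h study. How many of all genes separate to this degree is not given.

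Between the untreated tumors of the 24 h and 3-6 h studies CFB differed by 1.02 on the log2 scale (SE 0.276, adjusted p = 0.0197, limma) and was the only 1 of the 6 members past the threshold, against 4.36% of all genes. SAA1 differed by 1.54 (adjusted p = 0.0581), SAA2 by 1.85 (adjusted p = 0.0639) and their sum by 1.59 (adjusted p = 0.0581), while C3 differed by -0.17. The CFB call was lost without replicate 1 (adjusted p = 0.0838) or 4 (0.0562) of the 24 h study or replicate 3 of the 3-6 h study (0.13). SAA1 and SAA2 passed without replicate 2 of the 24 h study (adjusted p = 0.0309 and 0.0312) or replicate 4 of the 3-6 h study (0.0198 and 0.0229). Between 24 h and 1 h, and between 3-6 h and 1 h, no member was called in limma, with 0.00767% and 0.0997% of all genes called and with 0 and 1 (CFB, -0.69) of the 6 at an unadjusted p under 0.05, as were 1305 and 1206 of all genes. Study, sampling time and processing cannot be told apart here.

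Within groups, tumors high in one of SAA1, SAA2, LCN2 and CFB were high in the others. Correlations were computed over 91 tumors on deviations of log2(FPKM + 1) from the mean of each group, for 15 pairs, with p-values from a permutation within groups (100000 resamples, two-sided). Pearson's r was 0.981 for SAA1 with SAA2, which share fragments. SAA2 with LCN2 had r = 0.831 (Spearman's rho 0.809), SAA2 with CFB r = 0.86 (rho 0.855) and LCN2 with CFB r = 0.815 (rho 0.83). For these pairs the permutation p was 1e-05, the smallest the resamples can give (adjusted 2.14e-05 for r and 2.5e-05 for rho). Without the 2 tumors farthest from the median, r was 0.8, 0.858 and 0.796.

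The relation held within each study. SAA2 with LCN2 had r = 0.871 at 1 h, 0.847 at 3-6 h and 0.758 at 24 h, and SAA2 with CFB 0.831, 0.902 and 0.688. With the 3 shallow libraries included, the r of SAA2 with LCN2 was 0.425. In these libraries LCN2 was 0 in both tumors at 24 h and SAA2 was 2323 in the one given 30 mg/kg, and their part in the lower r was not tested one by one.

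C3 was only loosely related to SAA1 and SAA2. Its r with SAA1 was 0.194 (rho 0.201, permutation p = 0.0957, adjusted 0.103) and with SAA2 0.251 (rho 0.247, permutation p = 0.0273, adjusted 0.0341), whereas with LCN2 and CFB it was 0.516 and 0.512 (rho 0.482 and 0.499, adjusted permutation p = 3.75e-05 and 2.14e-05). Without the 2 farthest tumors the r of C3 with SAA1, SAA2, LCN2 and CFB was 0.187, 0.257, 0.46 and 0.46. It was not the same in each study. C3 with SAA1 had r = 0.434 at 1 h, 0.116 at 3-6 h and 0.194 at 24 h, and C3 with SAA2 had 0.484, 0.173 and 0.271. SAA4 had r from 0.154 to 0.326 with the other tested members, on values mostly near the limit of detection. The adjusted permutation p was 0.0279 with SAA1, 0.0301 with SAA2, 0.0099 with CFB, 0.0506 with LCN2 and 0.176 with C3. By study the r of SAA4 ran from 0.404 to 0.767 at 1 h, from -0.0303 to 0.292 at 3-6 h and from -0.0182 to 0.12 at 24 h.

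**Figure D4:**
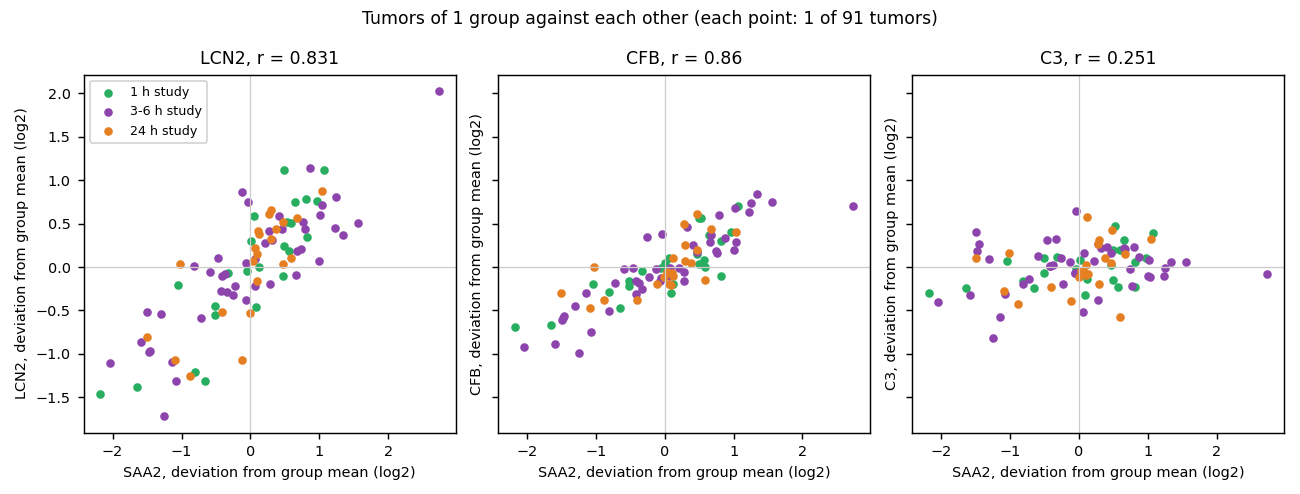
Deviation of SAA2 from its group mean (log2(FPKM + 1)) against that of LCN2, CFB and C3 in 91 tumors, with 1 point per tumor. Points lie along a line for LCN2 (r = 0.831) and CFB (r = 0.86) and scatter for C3 (r = 0.251).

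The genes whose tumor-to-tumor pattern was most like the SAA1 plus SAA2 sum were ranked by the same r over 91 tumors, as a description with no test. Among the highest were PI3 (0.96), an elastase inhibitor, IL6 (0.924), the cytokine that drives the acute phase, NAMPT (0.909), an enzyme of NAD synthesis, and CCL20 (0.885), a chemokine. The median r of all 13036 genes with the sum was -0.00936. For LCN2 they were RARRES1 (0.856), PDZK1IP1 (0.831), SAA2 (0.831), DSE (0.821) and CFB (0.815). The points share libraries, so depth and cell composition enter every pair.

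IL6 moved over a wider range than the acute-phase genes. At 24 h it was 349, 294, 152 and 313 FPKM in vehicle, 15.1, 209, 70.3, 56.0 and 130.2 after 200 mg/kg, 216, 85.8, 31.7 and 150.4 after 100 mg/kg and 134, 231, 58.1 and 282 after 30 mg/kg. At 200 mg/kg 4 of 5 tumors lay below every vehicle tumor, and the lowest of IL6, 15.1, was the tumor with the lowest SAA1 and SAA2. How many of all genes separate to this degree is not given, so the count is a description only. The log2 fold change of IL6 at 200 mg/kg was -1.90 (adjusted p = 0.236, limma), and that of PI3 was -1.75 (adjusted p = 0.129). NAMPT (-0.89, adjusted p = 0.184) and CCL20 (-1.32, adjusted p = 0.177) did not pass either. Between untreated tumors of the 24 h and 3-6 h studies PI3 (2.54), NAMPT (1.62) and CCL20 (1.89) were higher and passed, against 4.36% of all genes called. IL6 differed by 2.28 there (adjusted p = 0.148, limma). All were picked for varying with the SAA1 plus SAA2 sum, so these calls are not separate evidence.

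The genes upstream and beside these proteins were taken as fixed lists, and their calls at 24 h and 200 mg/kg are read against the 7.41% of all genes called. Of 8 inducing cytokines 6 were tested and 0 passed in limma, with a median log2 fold change of -0.62. TNF and OSM were not tested, at mean FPKM of 0.191 and 0.0869. Of 7 cytokine receptors, LIFR (-0.93, adjusted p = 0.00143) and OSMR (-0.52, adjusted p = 0.0102) fell, and IL6ST, the shared signalling subunit at a mean of 424 FPKM, did not pass. Of 12 transcription factors and feedback genes, SOCS3, the inhibitor induced by STAT3, fell (-0.73, adjusted p = 0.00852).

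Of 19 further complement genes 16 were tested. CFD, the protease that cleaves CFB in the alternative pathway, rose by 0.77 (adjusted p = 0.0374, limma), and CD55, which dissociates the C3 convertase, fell by 0.32 (adjusted p = 0.0351). The C1Q genes were at 0 in all libraries. Of 7 iron and copper genes 6 were tested, and ATP7B, a copper transporter that loads CP in liver, fell by 0.42 (adjusted p = 0.0432). Among 16 other acute-phase proteins only 5 were tested and 0 passed in limma. The highest was PTX3 at a mean of 14.4 FPKM, whereas CRP, the fibrinogen genes FGA, FGB and FGG, and ORM2 were at or close to 0. The mean of each of these 16 was below that of LCN2, while the complement genes C1S (365 FPKM) and C1R (273) were above it. Of 5 negative acute-phase proteins 2 and of 7 receptors and carriers 4 were tested, and 0 passed. At 100 and 30 mg/kg at 24 h, 0 genes of these lists passed in limma.

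Across tumors the deviations of the SAA1 plus SAA2 sum had, as a description, r = 0.832 with IL1B, 0.76 with NFKBIZ, 0.713 with IL1A, 0.676 with SOCS3 and 0.531 with CCN1. The sum had r = 0.727 with the leukocyte marker sum, in which CD68 had a mean of 138 FPKM while PTPRC had 0.416, and LYZ and CD163 were under 0.01 in 83 and 90 of 91 libraries. It had r = -0.706 with the mesothelial marker sum and -0.354 with the number of genes detected. C3 instead had r = 0.556 with the number of genes detected and 0.687 with the endothelial marker sum, most of which is KDR. Being of human genes, the leukocyte and endothelial sums cannot be read as amounts of mouse host cells. Whether these measures take part in the differences between groups was not tested.

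The readthrough gene varied with SAA1 and SAA2 from tumor to tumor, and SAA4 did so only loosely. The readthrough gene was 19.4, 18.3, 8.09 and 29.9 FPKM in vehicle at 24 h and 1.86, 12.2, 9.28, 4.96 and 10.6 after 200 mg/kg, with 2 of 5 below all vehicle tumors, and its deviations had r = 0.834 with the SAA1 plus SAA2 sum. SAA4 was 3.27, 5.44, 2.84 and 0 in vehicle and 1.63, 0.272, 1.01, 0 and 0.532 after 200 mg/kg. At 100 mg/kg it was 0, 2.7, 0 and 2.31, and at 30 mg/kg 2.9, 2.54, 1.26 and 2.45. With 38 of 91 values under 0.01, no order of doses can be read for SAA4.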

How the data were processed

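RNA-seq libraries were prepared from xenograft tumors with target enrichment and sequenced as paired ends. FPKM values were deposited by the authors in 1 table of the series, with 1 column per library. The submitters' processing notes name STAR and GRCh38, and the quantification tool, the annotation and the handling of mouse reads are not given in the sources used here. Table starts count from 0 and are given here from 1. Of 20555 entries, 316 repeats of a gene ID were left out and 32 blank cells were read as 0. Per-library columns not used numbered 0.

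The genes and lists were chosen with earlier results of these data known. Libraries with fewer than 10000 genes at an FPKM of 1 or more were left out, a limit that was also set with earlier results known. The 13036 genes that reached an FPKM of 1 in 4 or more of the other 91 libraries were tested on log2(FPKM + 1), a scale that understates changes of low genes, with limma 3.58.1 in R 4.3.3 (lmFit, eBayes with trend and robust), 1 coefficient for each of 19 groups and Benjamini-Hochberg adjustment per comparison at 0.05. SAA1 and SAA2 were replaced by their sum in an otherwise equal fit. Ratios and correlations were tested by permutation with scipy 1.17.1. The doses of a study have their vehicle tumors in common. Mice are separate animals by the labels. The named genes are the 7 members, fixed lists of related genes, and the 5 genes most like the SAA1 plus SAA2 sum and LCN2, of which 1 is not reported here. Alternatives were all 94 libraries, a pseudocount of 0.1, no filter, only the groups compared, quantile normalization, untreated controls and leaving out each replicate. The test was tested on simulated data.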

Additional observations from a re-analysis of the deposited data

Results flagged for a closer look

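Of 133 sets of values checked (7 genes or sums in 19 groups), 15 held a tumor far from the others of its group by Dixon's criterion, and chance alone gives about 1 in 20. Several flags fell on the same tumors. Replicate 2 of 30 mg/kg at 1 h was low in SAA1 (641 FPKM), SAA2 (75.5), their sum (717) and LCN2 (11.4). Replicate 1 of 200 mg/kg in cage group 4 at 3-6 h was low in SAA1 (838), SAA2 (154) and their sum (992), and replicate 2 of that cage group was high in CFB (455). Replicate 1 of 200 mg/kg at 24 h was the lowest in SAA2 (41.0) and in the sum (302). LCN2 was low in replicate 3 of the untreated tumors at 3-6 h (12.1) and in replicate 4 of 30 mg/kg at 24 h (20.2), and high in replicate 2 of 100 mg/kg in cage group 7 at 3-6 h (116). SAA4 was high in replicate 4 of the untreated tumors at 1 h (0.972) and in replicate 2 of 200 mg/kg in cage group 5 at 3-6 h (2.82), where the other 4 tumors were at or near 0.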

How the results depend on the processing

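For the untreated tumors of the 24 h against the 3-6 h study, 1 member passed the threshold, and 0 passed with all 94 libraries or with only the groups compared, and from 0 to 3 passed when each replicate was left out in turn. The other 420 recomputed counts of members past the threshold stayed at 0 or within 1.5 times. Over all genes the calls depended strongly on the 3 shallow libraries. With all 94 libraries, 0 of 13041 genes were called for 200 mg/kg against vehicle at 24 h and 0 at 3-6 h. With 91 libraries these were 966 and 9 of 13036. The calls of CCN1, CCN2 and the listed genes at 200 mg/kg were thus made only with the shallow libraries left out. Directions turned in 5 fold changes at 24 h, none past the threshold. With all 94 libraries, C3 at 24 h was at -0.15 for 100 mg/kg and -0.29 for 30 mg/kg, LCN2 at -1.10 and CFB at 0.34 for 30 mg/kg. Leaving out replicates gave -0.25 to 0.05 for CFB at 100 mg/kg (0.045 without vehicle replicate 4), -0.14 to 0.45 for LCN2 and -0.19 to 0.10 for CFB at 30 mg/kg, and -2.25 to -1.78 for the SAA1 plus SAA2 sum at 200 mg/kg. The r of SAA4 with CFB was -0.0182 within the 24 h study. Causes were not tested. Without counts, depth limits for SAA4 and CP cannot be given. No paired analysis was possible because replicate numbers were given within groups and pair no tumors.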
